A study of Cyclotella cryptica with 27 samples.

Results

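Messenger RNA of the diatom Cyclotella cryptica strain CCMP332 after 4 h in freshwater was compared with that of cells kept in seawater. The cells had grown exponentially in artificial seawater at 24 ppt and 15 °C under a light and dark cycle, and were spun down and resuspended in water of 0 ppt, held at the same temperature. The samples were chosen by their labels, freshwater 4 h and seawater control, which cover 6 of the 27 labelled count columns of the series. Of these 6 columns, 3 were used: the seawater control replicate 1 and the freshwater 4 h replicates 2 and 3. The 4 h replicate 1 equalled the mean of the other columns to within 0.5 counts for 99.97% of genes, and the control replicates 2 and 3 were shifted copies of replicate 1, so none of the 3 adds a replicate. Over all 9 groups, which are the control and freshwater at 0, 15 and 30 min and 1, 2, 4, 8 and 10 h, 16 columns were independent. The control is labelled as taken at 0 min, and no seawater culture of 4 h was analysed here, so freshwater and the time elapsed since the transfer, including the time of day, cannot be told apart.

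Cyclotella cryptica is a centric diatom with a silica cell wall that lives across a wide range of salinities. When such a cell enters dilute water, water flows in by osmosis, and algae answer by releasing or metabolising small organic solutes, by moving ions and by changing gene expression. Diatom plastids harvest light with fucoxanthin chlorophyll proteins, and their chlorophyll is made by the tetrapyrrole pathway, which starts from glutamate. Pyruvate and phosphoenolpyruvate link glycolysis, the citric acid cycle, gluconeogenesis and amino acid synthesis.

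The gene counts of the control column summed to 3537770, those of the 4 h columns to 3354037 and 2886872, and those of the 16 independent columns to between 2809130 and 6889349. Multiply aligned reads took 28.28% of all gene, ambiguous and multiple alignments in the control, 19.79% in 4 h replicate 2 and 29.44% in 4 h replicate 3, so the 4 h columns lay on either side of the control in this measure. Distances between columns, as root mean squares of log2 CPM differences (CPM is the count of a gene relative to the total of its column), were 0.53 between the 4 h columns, 0.73 between the control and 4 h replicate 2, and 0.58 between the control and 4 h replicate 3. Replicate 3 was thus little farther from the control than from its own replicate. All 37 annotated fucoxanthin and chlorophyll light-harvesting genes had enough counts to be tested. This cannot check the labelled cell type, since all counted genes are of this diatom. The labels do not say that replicates came from separate cultures, so p-values measure only the spread between these columns, which may be technical. In a bulk sample, fewer cells of a kind and less RNA per cell cannot be told apart.

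Levels are given below as CPM after TMM scaling, and differences as log2 fold changes ± SE from edgeR's quasi-likelihood fit to the 16 columns. A gene was called at a Benjamini-Hochberg adjusted p below 0.05. The single control column was assumed to vary like the columns of the other groups. Gene names are those of the deposited tables, which rest on similarity to proteins of other organisms.

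Against the seawater control, 471 of 12501 tested genes were called, which is 3.77%. Of these, 337 (2.7%) were higher at 4 h and 134 (1.07%) were lower. A protein name was attached to 129 of the higher and 65 of the lower genes, 2.25% and 1.13% of the 5736 tested genes with a name. The calls rested unevenly on the 4 h columns: without replicate 2 there were 146 higher and 12 lower genes, and without replicate 3 there were 802 and 631. Fitted to the compared columns alone, 373 genes were higher and 51 lower. Both 4 h columns lay above the control column in CPM for 37.1% of all tested genes and below it for 39.3%, so a lack of overlap with 1 control column is common.

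The freshwater 0 min column, taken as soon as the cells were in freshwater, gave a second baseline. Against it 227 genes were called (1.82%), 208 higher (1.66%) and 19 lower (0.152%). Both comparisons share the 4 h columns, so their calls are not independent of each other. Of the 337 genes higher than the control, 134 were also called higher than at 0 min, and 203 were not. Of the 134 genes lower than the control, 9 were also called lower than at 0 min, and 125 were not.

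These groups of genes differed in how they sat among the other columns. In the 134 genes higher than both baselines the median log2 fold change was 1.37 against the control and 1.64 against 0 min, the 0 min column lay below the control by a median of -0.33, and 4 h replicate 2 was above replicate 3 in 25 genes. In the 203 genes higher than the control only, the median was 1.30 against the control but 0.33 against 0 min, replicate 2 was above replicate 3 in 176 genes, and the control was the lowest of all 16 columns in 134 genes. In the 125 genes lower than the control only, the medians were -0.92 and -0.39, replicate 2 was below replicate 3 in most genes (above it in 16), and the control was the highest of all columns in 98. Over all tested genes the medians were 0.00 and 0.03, and replicate 2 was above replicate 3 in 5908.

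The same division appeared when a 4 h column was left out. Of the 134 genes higher than both baselines, 109 were still called against the control without replicate 2 and 114 without replicate 3. Of the 203 higher than the control only, 25 were still called without replicate 2 and 197 without replicate 3. Of the 125 lower than the control only, 5 were still called without replicate 2 and 119 without replicate 3. Of the 9 lower than both baselines, 6 were still called without replicate 2 and 9 without replicate 3. Most genes called against both baselines thus kept their call against the control with either 4 h column alone. Most of those called against the control only needed replicate 2. The groups were defined by tests on the same 4 h columns, so this is not independent support for the division.

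**Figure D1:**
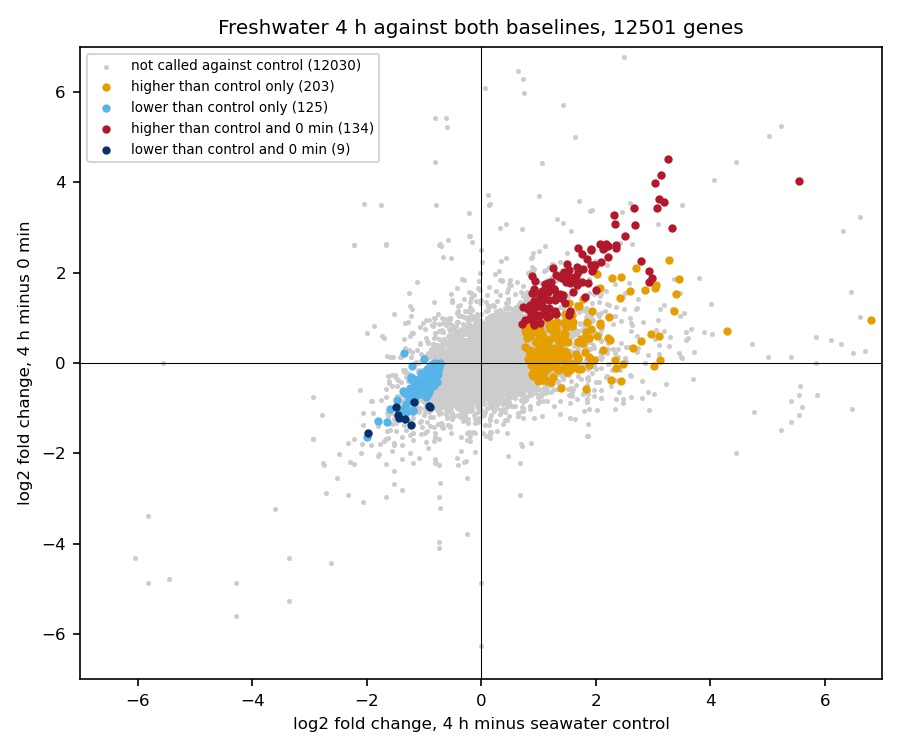
Each point is 1 of 12501 genes, with the log2 fold change of 4 h against the seawater control on the horizontal axis and against 0 min on the vertical axis, both from edgeR, and colours mark genes called against the control. The 134 genes higher than both baselines lie along the diagonal at the upper right. The 203 higher than the control only lie low, around a median of 0.33 on the vertical axis. Both axes are cut, and genes beyond them are not shown, among them CCRYP_004848 at 7.44 against the control.

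Some enzymes that handle pyruvate and phosphoenolpyruvate were among the genes higher than both baselines. Of 20 tested genes with such a name, 6 rose against the control and none fell, beside 2.7% and 1.07% of all genes. All 6 also rose against 0 min and were higher than at 8 h, beside 1.66% and 2.81% of all genes. The median of the 20 was 0.30. The family was put together after its values had been seen, so its count describes these genes only. All 6 remained called without either 4 h replicate, and 4 of the 6 in the fit to the compared columns alone.

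The E1 component subunit alpha of pyruvate dehydrogenase (CCRYP_012039), which begins the conversion of pyruvate to acetyl-CoA, stood at 28.7 CPM in the control, 22.2 at 0 min, and 157 and 213 at 4 h. Both 4 h columns were far above both baselines. The log2 fold change was 2.69 ± 0.35 against the control (edgeR adjusted p = 0.000128) and 3.06 ± 0.36 against 0 min (edgeR adjusted p = 1.99e-05). At 2 h the gene already stood at 141 and 178 CPM, and at 8 h it was at 23.1 and 25.2, close to its seawater level. Its course was not a single rise and return: it stood at 78.9 and 74.4 CPM at 15 min and 28.8 and 11.9 at 30 min. At 10 h it was again above the control, at 61.7, 65.3 and 72.3 CPM. The difference was 2.94 ± 0.27 from 8 h (edgeR adjusted p = 4.64e-07) and 0.21 ± 0.23 from 2 h (edgeR adjusted p = 0.776). A further gene named pyruvate dehydrogenase (CCRYP_018870) measured 281 CPM in the control, 205 at 0 min, and 705 and 842 at 4 h. It rose by a log2 fold change of 1.46 ± 0.23 against the control (edgeR adjusted p = 0.000466). The E1 subunits beta, CCRYP_008722 at -0.46 and CCRYP_011180 at 0.46, did not pass (edgeR adjusted p = 0.62 and 0.511).

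Pyruvate carboxylase (CCRYP_010390), the mitochondrial enzyme that makes oxaloacetate from pyruvate, stood at 368 CPM in the control, 268 at 0 min, and 1159.9 and 1486 at 4 h. Its log2 fold change was 1.84 ± 0.30 against the control (edgeR adjusted p = 0.000753) and 1.96 ± 0.23 against 8 h. It also stood at 804 and 678 CPM at 15 min, 324 and 178 at 30 min, and 667, 682 and 803 at 10 h. At 2 h it already stood at 1007 and 1259 CPM, and its difference of 0.22 from 2 h did not pass (edgeR adjusted p = 0.749). The other genes with this name did not pass the test, at -0.25 for CCRYP_010356 (edgeR adjusted p = 0.598) and 0.30 for CCRYP_010552 (edgeR adjusted p = 0.413).

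Of the enzymes that form or use phosphoenolpyruvate, 3 rose. Pyruvate, phosphate dikinase (CCRYP_020923), which makes phosphoenolpyruvate from pyruvate in a reversible step, measured 327 CPM in the control, 225 at 0 min, and 776 and 919 at 4 h, a log2 fold change of 1.37 ± 0.23 (edgeR adjusted p = 0.001). The PPi-type phosphoenolpyruvate carboxykinase (CCRYP_017838), which interconverts oxaloacetate and phosphoenolpyruvate, measured 969 CPM in the control, 732 at 0 min, and 1860.3 and 2110.1 at 4 h. Its log2 fold change was 1.03 ± 0.25 (edgeR adjusted p = 0.0211). A putative phosphoenolpyruvate synthase (CCRYP_018224) rose by 0.98 ± 0.23 (edgeR adjusted p = 0.0206), from 78.2 CPM in the control to 143 and 165 at 4 h. For each of the 3 enzymes, both 4 h columns were above the control and the 0 min column. The phosphoenolpyruvate carboxylases CCRYP_003522 and CCRYP_006412, at -0.52 and 0.42, and a further carboxykinase, CCRYP_012802, at 0.28, did not pass. Nor did the pyruvate kinases CCRYP_006686, CCRYP_018508, CCRYP_007697 and CCRYP_020628, which make pyruvate from phosphoenolpyruvate, at -0.32, -0.35, -0.20 and -2.12, the last with 15 counts in the control and 3 in each 4 h column.

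In the wider list of central carbon enzymes, 9 of 127 tested genes rose (7.09%) and 3 fell (2.36%), beside 2.7% and 1.07% of all genes. The median was -0.14, so the calls stood apart from the middle of the list. Without replicate 2, 7 of the 9 higher and none of the 3 lower genes were still called. The lower genes were glucose-6-phosphate isomerase (CCRYP_006702) and the pyrophosphate-dependent phosphofructokinase (CCRYP_011751) of glycolysis, which fell by 0.81 and 0.91 on the log2 scale, and an endo-1,3(4)-beta-glucanase (CCRYP_004136), of a family that cuts beta-glucans such as the diatom storage polysaccharide, which fell by 0.75. Outside the list, phosphoribulokinase (CCRYP_011746) and ribulose-phosphate 3-epimerase (CCRYP_017561) of the Calvin cycle fell by 0.88 and 0.83. Fumarate hydratase (CCRYP_018362) of the citric acid cycle was higher than the control by 1.24, with 21.7 CPM in the control, 49.5 at 0 min, and 57.7 and 45 at 4 h, so that its 0 min level lay between the 4 h columns. Isocitrate lyase (CCRYP_013789), the entry to the glyoxylate cycle, stood at 50.7 CPM in the control, 58.8 at 0 min, and 87.3 and 102 at 4 h. It rose by 0.90 ± 0.23 against the control (edgeR adjusted p = 0.0277), but its difference of 0.69 from 0 min did not pass (edgeR adjusted p = 0.172).

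The malonate-CoA ligase ACSF3 (CCRYP_001740), which activates malonate in mitochondria, stood at 240 CPM in the control, 160 at 0 min, and 795 and 1020.1 at 4 h. Its log2 fold change was 1.92 ± 0.29 (edgeR adjusted p = 0.0003), and it was higher than at 8 h by 2.12. At 2 h it already stood at 705 and 864 CPM, and its difference of 0.21 from 2 h did not pass (edgeR adjusted p = 0.754). Methylmalonyl-CoA mutase (CCRYP_008838), which turns methylmalonyl-CoA into succinyl-CoA, rose from 78.2 CPM to 179 and 210, by 1.31 ± 0.22 (edgeR adjusted p = 0.0011). Acetate-CoA ligase (CCRYP_019205) rose from 19.6 CPM to 48.4 and 59.5, by 1.45 ± 0.37 (edgeR adjusted p = 0.0324), but lost its call without replicate 2. Over all 186 tested genes of fatty acid and lipid metabolism, 2 rose (1.08%) and 1 fell (0.54%), beside 2.7% and 1.07% of all genes. The median of the list was -0.15. The 1 that fell, by 0.77, was a very-long-chain 3-oxoacyl-CoA reductase (CCRYP_006567) of fatty acid elongation.

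**Figure D2:**
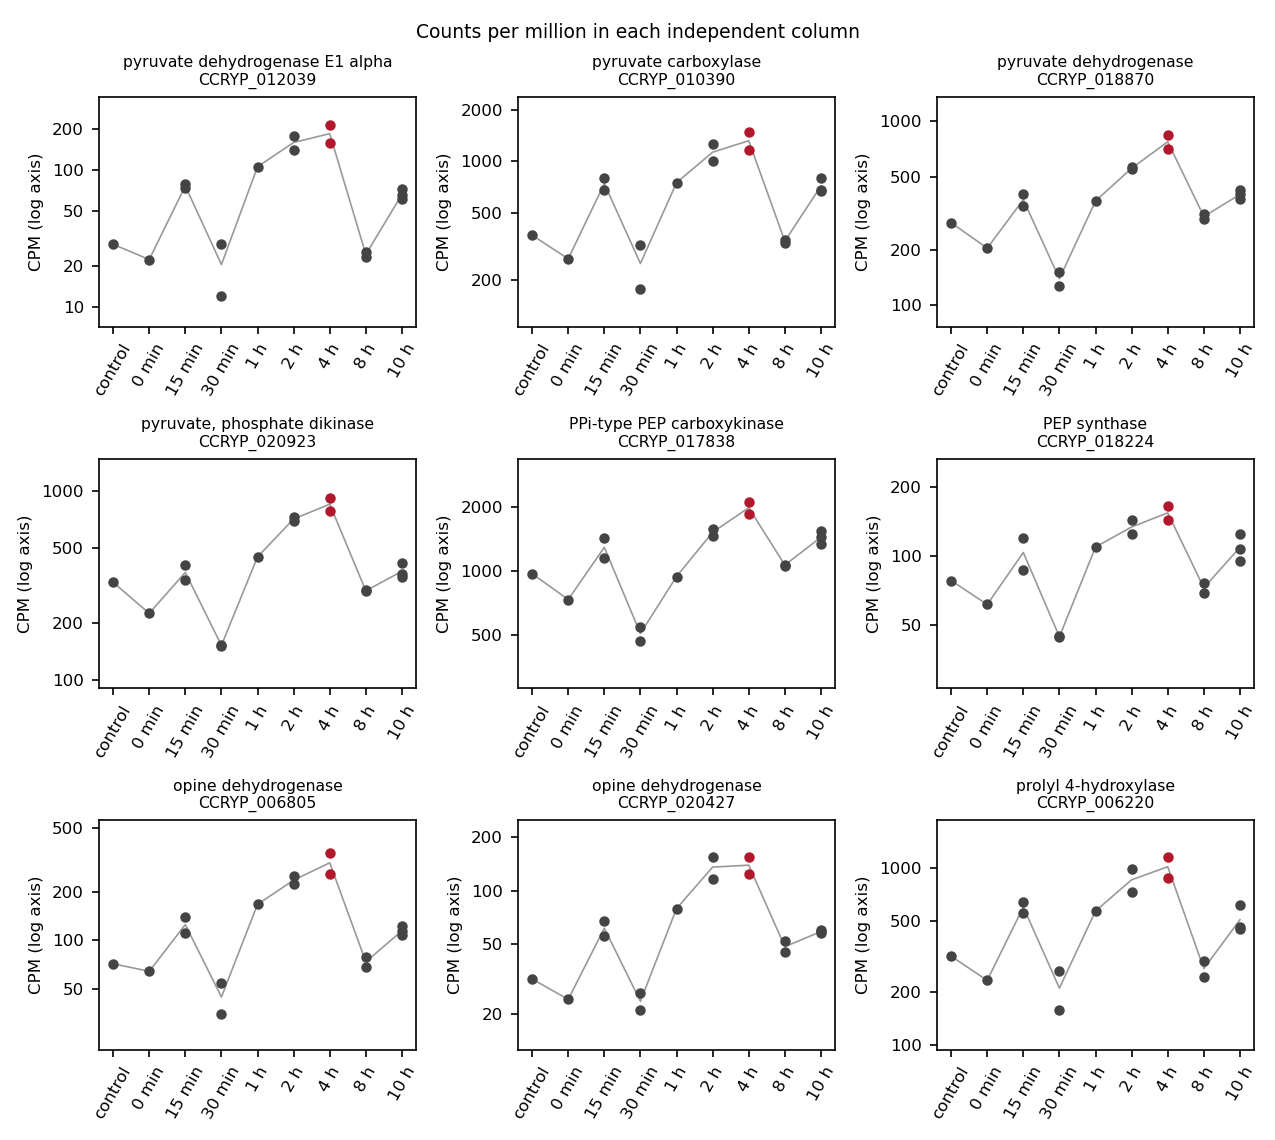
Each panel shows the CPM of 1 gene, on a log axis, in the 16 independent columns from the seawater control to 10 h in freshwater, with 4 h in red and a line through the group means. In all 9 panels both 4 h points lie above the control and 0 min and above 8 h; pyruvate dehydrogenase E1 alpha, for example, is at 157 and 213 at 4 h and at 23.1 and 25.2 at 8 h.

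Both genes annotated as opine dehydrogenase, a family that joins an amino acid to pyruvate or another keto acid, rose at 4 h. CCRYP_020427 stood at 31.7 CPM in the control, 24.3 at 0 min, and 124 and 155 at 4 h, a log2 fold change of 2.13 ± 0.26 (edgeR adjusted p = 2.38e-05). CCRYP_006805 stood at 71.6 CPM in the control, 64.3 at 0 min, and 259 and 348 at 4 h, a log2 fold change of 2.08 ± 0.26 (edgeR adjusted p = 3.73e-05). Neither overlapped its baselines, and both calls held without either 4 h replicate. Compared with 8 h they were higher by 1.53 and 2.05. At 2 h CCRYP_020427 already stood at 116 and 156 CPM and CCRYP_006805 at 224 and 250. Their differences of 0.04 and 0.36 from 2 h did not pass (edgeR adjusted p = 0.967 and 0.428). At 10 h CCRYP_020427 stood at 59, 57.5 and 59.7 CPM and CCRYP_006805 at 108, 123 and 114, again above the control. As for other genes of like sequence named here, reads could be split between copies, and such members are uncertain.

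Of 63 tested genes in the list of osmolyte and amino acid metabolism, 3 rose (4.76%, beside 2.7% of all genes) and none fell. The median was 0.02. An aminotransferase for kynurenine and alpha-aminoadipate (CCRYP_004064) stood at 8.76 CPM in the control, 8 at 0 min, and 32.7 and 35.7 at 4 h, a log2 fold change of 1.96 ± 0.35 (edgeR adjusted p = 0.00206). It was the 1 of the 3 still called without replicate 2. Ornithine decarboxylase (CCRYP_007912), which starts polyamine synthesis, measured 116 CPM in the control, 330 at 0 min, and 394 and 211 at 4 h. It was higher than the control by 1.38 ± 0.34 (edgeR adjusted p = 0.0281), but the 0 min level lay between the 4 h columns. The same held for a branched-chain amino acid aminotransferase (CCRYP_009721), at 19.9 CPM in the control, 54.5 at 0 min, and 69.1 and 41.7 at 4 h.

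Outside the list, inositol oxygenase (CCRYP_016095), which opens the ring of inositol, was at 8.45 CPM in the control, 27.4 at 0 min, and 22.8 and 24.9 at 4 h. It was called against the control, by 1.49 ± 0.41 (edgeR adjusted p = 0.0402), although 0 min was above both 4 h columns. The 4-hydroxy-tetrahydrodipicolinate synthase (CCRYP_008304) of lysine synthesis rose from 149 CPM in the control and 90.2 at 0 min to 252 and 311, by 0.92. Of the nitrogen enzymes, hydroxylamine reductase (CCRYP_009676) rose from 439 CPM in the control and 356 at 0 min to 821 and 1004, by 1.05 ± 0.23 (edgeR adjusted p = 0.0131). Nitrite reductase (CCRYP_004855), which makes ammonium from nitrite, was at 44.4 CPM in the control, 86.5 at 0 min, and 113 and 93 at 4 h, called against the control only and not without replicate 2.

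Prolyl 4-hydroxylases, which hydroxylate proline in proteins and use 2-oxoglutarate and oxygen, moved in part. Of 30 tested genes with this name, 5 rose against the control and none fell, beside 2.7% and 1.07% of all genes. Of the 5, 4 also rose against 0 min, beside 1.66% of all genes. The median of the 30 was -0.06, and this family too was chosen after its values were seen. CCRYP_006220 measured 318 CPM in the control, 232 at 0 min, and 872 and 1155 at 4 h, a log2 fold change of 1.67 ± 0.31 (edgeR adjusted p = 0.00295). CCRYP_011391 and CCRYP_010032 rose by 1.50 ± 0.26 and 1.42 ± 0.26, and CCRYP_021154 by 1.05 ± 0.30. A close relative by name, CCRYP_021225, differed by 0.95 ± 0.29 and did not pass (edgeR adjusted p = 0.0621). The fifth, CCRYP_005387, was higher than the control only, at 19.6 CPM against 45.6 and 39.1, and lost its call without replicate 2, as did CCRYP_021154 without replicate 3.

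Several single genes among the 12 named genes with the highest fold change belonged to protein turnover and sugar metabolism. The transitional endoplasmic reticulum ATPase (CCRYP_013766), a segregase of the p97 type that pulls ubiquitinated proteins out of membranes and complexes, stood at 34.7 CPM in the control, 24.6 at 0 min, and 148 and 153 at 4 h. Its log2 fold change of 2.12 ± 0.24 had the smallest adjusted p among the named genes described here (edgeR adjusted p = 1.5e-05). The glutamine-fructose-6-phosphate aminotransferase (CCRYP_013935), the first step of hexosamine synthesis, had 5 counts in the control and 50 and 38 at 4 h. Its log2 fold change was 3.27 ± 0.78 (edgeR adjusted p = 0.0203), with a large SE from the low counts, and it lost its call without replicate 2.

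The alkaline serine exoprotease A (CCRYP_012496) rose from 45.9 CPM to 131 and 216, by 1.91 ± 0.32 (edgeR adjusted p = 0.00176). A peptidyl-Asp metalloendopeptidase (CCRYP_012891) rose from 23.9 CPM to 94.4 and 100, by 2.03 ± 0.51 (edgeR adjusted p = 0.047), and lost its call when either 4 h replicate was left out. A tolloid-like protease (CCRYP_006587) rose by 2.23 ± 0.43 against the control (edgeR adjusted p = 0.00484) and stood above 0 min by 1.01, which did not pass. A putative 6-carboxytetrahydropterin synthase (CCRYP_013716) had 5 counts in the control and 32 and 19 at 4 h, and at 0 min it stood at 8.62 CPM, between the 9.87 and 7.07 CPM of the 4 h columns. The FixL sensor protein (CCRYP_011731), named after an oxygen sensor of rhizobia, rose from 24.5 CPM to 89.7 and 81.5, by 1.81 ± 0.26 (edgeR adjusted p = 0.000203).

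Heat shock transcription factors, a large family in diatoms, were mostly above the control. Of 56 tested members, 5 rose (8.93%, beside 2.7% of all genes) and none fell. The median log2 fold change was 0.60 against 0.00 for all genes. Both 4 h columns were above the control in 44 of the 56, as in 37.1% of all tested genes. Against 0 min the median was 0.08 and 1 member was called. In 47 of the 56, replicate 2 was above replicate 3. Without replicate 2 none of the 5 was called, and without replicate 3 the list had 13 called members.

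The factor A-1a (CCRYP_004728) was the member called against both baselines. It stood at 67 CPM in the control, 77.5 at 0 min, and 179 and 151 at 4 h, with log2 fold changes of 1.30 ± 0.28 against the control (edgeR adjusted p = 0.0128) and 1.09 ± 0.28 against 0 min (edgeR adjusted p = 0.0412). The factor named HSF1 (CCRYP_001763) stood at 3.62 CPM in the control, 8.31 at 0 min, and 19.7 and 10.8 at 4 h. It rose by 2.08 ± 0.51 (edgeR adjusted p = 0.0212), and it was also higher than at 2 h, where it was at 5.07 and 4.34 CPM, by 1.70 ± 0.39 (edgeR adjusted p = 0.0145). It was the 1 of the 5 that was called against 2 h.

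The factors A-6a (CCRYP_017571) and HSF2 (CCRYP_017321) were higher than the control by 1.59 and 0.97, with the 0 min level of A-6a, 51.7 CPM, between its 4 h levels of 63.2 and 38. The factor A-3 (CCRYP_006349) had 1 count in the control, 13 at 0 min, and 35 and 5 at 4 h. Its ratio to the control was 22.3, with a 95% counting interval of 3.79 to 904 (edgeR adjusted p = 0.0445), and its 0 min level of 4 CPM lay between the 10.8 and 1.86 CPM of the 4 h columns. Heat shock proteins and other chaperones did not move with the factors as a list, with a median of -0.10. Of 89 tested, 1 rose (1.12%) and none fell, beside 2.7% and 1.07% of all genes. The 1 that rose was a DnaJ chaperone (CCRYP_008213), at 7.85 CPM in the control, 17.5 at 0 min, and 34.5 and 24.6 at 4 h. Its difference of 0.76 from 0 min did not pass (edgeR adjusted p = 0.474).

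Of 53 tested calcium signalling genes, 4 rose (7.55%, beside 2.7% of all genes) and none fell, with a median of 0.39. Against 0 min the median was 0.29 and 2 members were called, and replicate 2 was above replicate 3 in 35 of the 53. Of the 4 that rose, 1 was higher than both baselines and was still called without replicate 2. It was a calcium-binding protein (CCRYP_013470), at 42 CPM in the control, 28 at 0 min, and 102 and 125 at 4 h. Its log2 fold change was 1.44 ± 0.24 (edgeR adjusted p = 0.001). The regulatory subunit B of calcineurin (CCRYP_007721), a calcium-dependent phosphatase, had 6 counts in the control and 31 and 21 at 4 h, and rose by 2.25 ± 0.57 (edgeR adjusted p = 0.0271). Outside the list, annexin A13 (CCRYP_003673), which binds membranes in the presence of calcium, stood at 137 CPM in the control, 338 at 0 min, and 487 and 240 at 4 h. Its call against the control (1.41 ± 0.30, edgeR adjusted p = 0.0121) thus went with a 0 min level between the 4 h columns, while against 2 h it was higher by 1.12 ± 0.24 (edgeR adjusted p = 0.00866). The remaining called members of the list were the calcium-dependent kinases CCRYP_002618 and CCRYP_021216, which rose by 0.97 and 0.96. In a group of 38 such kinases, formed after the values were seen, these 2 were the calls, beside 2.7% higher over all genes. The median of the 38 was 0.54.

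Of 100 tested ion channels, exchangers and proton pumps, 2 rose and 1 fell, shares near the 2.7% and 1.07% of all genes, and the median was -0.25. A voltage-gated potassium channel (CCRYP_014150) was at 120 CPM in the control, 270 at 0 min, and 389 and 221 at 4 h, 1.35 ± 0.32 above the control (edgeR adjusted p = 0.0211). Subunit H of the vacuolar proton ATPase (CCRYP_012373) was at 91.2 CPM in the control, 228 at 0 min, and 288 and 152 at 4 h, whereas subunit B (CCRYP_000488) fell from 160 CPM in the control, with 92.9 at 0 min, to 86 in both 4 h columns. Subunits of the same pump were therefore called in opposite directions, and none of the 3 calls held without replicate 2.

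Of 117 tested genes of vesicle traffic and secretion, 3 rose (2.56%, against 2.7% of all genes) and none fell, with a median of 0.08. The 3 were sorting nexin 1 (CCRYP_003756), VPS28 (CCRYP_009497) of the endosomal sorting complexes and VPS4 (CCRYP_017244), the ATPase that takes those complexes apart. VPS28 stood at 35 CPM in the control, 84.3 at 0 min, and 112 and 53.2 at 4 h. VPS4 stood at 44.1 CPM in the control, 102 at 0 min, and 127 and 75.9 at 4 h, so for both the 0 min column lay between the 4 h columns. Autophagy-related protein 8 (CCRYP_016027), the protein that marks autophagosomes, rose from 56.2 CPM to 109 and 105, but it was at 120 at 0 min. None of these 4 calls held without replicate 2.

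Cyclins and cell cycle genes gave 3 higher calls (4.29%, beside 2.7% of all genes) and no lower calls among 70. The median was 0.22, while against 0 min it was -0.06 and no member was called. Cyclin-B1-1 (CCRYP_003967), which drives entry into mitosis, was at 7.55 CPM in the control, 14.5 at 0 min, and 30.5 and 23.4 at 4 h, a log2 fold change of 1.84 ± 0.50 (edgeR adjusted p = 0.0427). The others were a further mitotic cyclin (CCRYP_017637) and Cyclin-U1-1 (CCRYP_003472), at 0.90 and 0.77 above the control. At 0 min CCRYP_017637 stood at 218 CPM, above its 210 and 162 at 4 h. All 3 lost their calls without replicate 2.

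**Figure D3:**
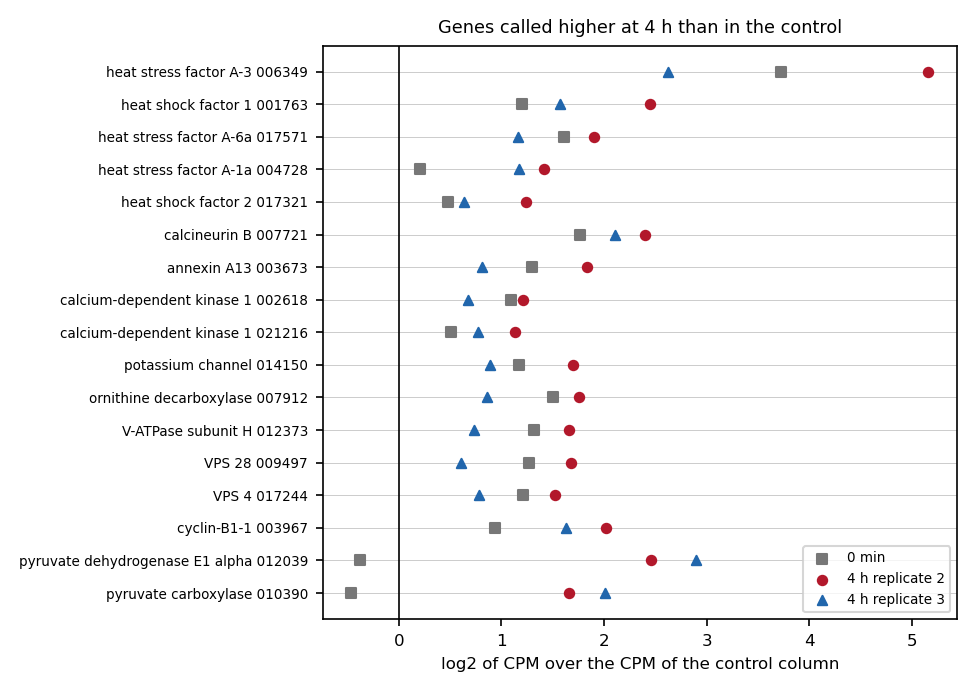
For 17 genes called higher at 4 h than in the control, the horizontal axis gives the log2 ratio of CPM at 0 min (grey squares), 4 h replicate 2 (red circles) and 4 h replicate 3 (blue triangles) to the control column at 0. For the pyruvate enzymes at the bottom both 4 h points lie to the right and 0 min to the left of the control, while for annexin, the potassium channel and VPS28 the 0 min point lies between the 4 h points.

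Some genes of the photosynthetic apparatus fell at 4 h. Of 37 light-harvesting genes, 6 fell (16.2%, beside 1.07% of all genes) and 1 rose, and the median log2 fold change was -0.70. Both 4 h columns were below the control in 32 of the 37, as in 39.3% of all tested genes. Against 0 min none was called and the median was -0.38; 4 h replicate 2 was above replicate 3 in 6 of the 37. Without replicate 2 none was called lower, and without replicate 3 there were 23. At 8 h the genes stood higher again: 13 of the 37 were called lower at 4 h than at 8 h, where the share over all genes was 0.528%, and this count was 1 without replicate 2 and 21 without replicate 3.

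The greatest falls among them were in the LI818 type, named after a light-induced gene of green algae, whose relatives protect against excess light. CCRYP_010211 measured 70.4 CPM in the control, 49.2 at 0 min, and 16.7 and 23.8 at 4 h, and 58.8 and 54.7 at 8 h. Both 4 h columns were below every one of these, with a log2 fold change of -1.81 ± 0.34 against the control (edgeR adjusted p = 0.006) and -1.50 ± 0.30 against 8 h (edgeR adjusted p = 0.00571). CCRYP_010212 and CCRYP_010215 fell by 1.45 and 1.64 on the log2 scale. Not all genes of this name fell: CCRYP_010128 rose, from 11.2 CPM in the control to 29 and 26.1 at 4 h, by 1.30 ± 0.35 (edgeR adjusted p = 0.0365), and CCRYP_013391, at -0.28, did not pass. Among fucoxanthin chlorophyll proteins, CCRYP_017196 fell from 297 CPM to 154 and 177, by 0.84, and CCRYP_011803 and CCRYP_012283 fell by 0.77 and 0.82.

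In the list of pigment synthesis and photosynthetic electron transport, 9 of 57 tested genes fell (15.8%, beside 1.07% of all genes) and none rose. The median was -0.55. Both 4 h columns were below the control in 48 of the 57, as in 39.3% of all tested genes. Against 0 min none was called and the median was -0.16. Without replicate 2 none of the 9 was called, without replicate 3 the list had 26 called members, and in the fit to the compared columns alone 4 of the 9 remained.

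Tetrapyrrole synthesis was taken as 25 tested genes from glutamyl-tRNA reductase to chlorophyll synthase, grouped after the values were seen. Of these, 10 fell, beside 1.07% of all genes. The median was -0.80 and all 25 fold changes were below 0, where the median of all genes was 0.00. The falls spread along the pathway. At its start, glutamyl-tRNA reductase (CCRYP_018330), which commits glutamate to the pathway, went from 47.1 CPM in the control to 24.1 and 28.7 at 4 h, with 30.5 at 0 min, and fell by 0.84 ± 0.24 (edgeR adjusted p = 0.0442). Its binding protein (CCRYP_000766) fell by 0.90. Delta-aminolevulinic acid dehydratase (CCRYP_006561), which makes porphobilinogen, went from 124 CPM to 50.9 and 69.2, with 69.9 at 0 min, and fell by 1.06 ± 0.23 (edgeR adjusted p = 0.0127). In each case the 0 min column was already nearer to 4 h than to the control.

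The next steps, porphobilinogen deaminase (CCRYP_005649), uroporphyrinogen-III synthase (CCRYP_005457), the uroporphyrinogen decarboxylases CCRYP_001796 and CCRYP_020134, and protoporphyrinogen oxidase (CCRYP_017359), fell by 0.83, 1.14, 1.04, 1.18 and 0.79. On the chlorophyll branch, the ChlD subunit of magnesium chelatase (CCRYP_005476), which inserts magnesium, fell by 0.92 ± 0.26 (edgeR adjusted p = 0.0422). Divinyl chlorophyllide a 8-vinyl-reductase (CCRYP_010265) measured 164 CPM in the control, 92 at 0 min, and 53 and 92.7 at 4 h, a log2 fold change of -1.18 ± 0.26 (edgeR adjusted p = 0.012). None of the 10 was called against 0 min, where the median of the 25 was -0.22, and none of the 10 calls held without replicate 2, while all 10 held without replicate 3.

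Plastid isoprenoid and carotenoid genes pointed the same way with fewer calls. The 8 tested genes of the methylerythritol phosphate pathway had a median of -0.66 against the control and -0.20 against 0 min. Of these, 2 fell, beside 1.07% of all genes. They were 1-deoxy-D-xylulose 5-phosphate reductoisomerase (CCRYP_011807), at 229 CPM in the control, 150 at 0 min, and 97.5 and 138 at 4 h, and the next enzyme, which adds cytidine (CCRYP_016936). Neither was called against 0 min. Of 17 carotenoid synthesis genes 3 fell, beside 1.07% of all genes, with a median of -0.56 and all 17 fold changes below 0. Against 0 min none of the 3 was called and the median of the 17 was -0.16. Phytoene synthase (CCRYP_007830), the first step to carotenoids, fell by 0.78, prolycopene isomerase (CCRYP_003022) by 0.93 and violaxanthin de-epoxidase (CCRYP_009294), an enzyme of the protective xanthophyll cycle, by 0.85. Both families were formed after the values were seen, and none of the 5 calls held without replicate 2. The iron-sulphur cluster assembly factor HCF101 (CCRYP_005936), needed for photosystem I in Arabidopsis, fell from 121 CPM to 41 and 60.3, by 1.27 ± 0.26 (edgeR adjusted p = 0.00709). At 0 min it stood at 85.2 CPM, and its difference of -0.76 from 0 min did not pass (edgeR adjusted p = 0.24).

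**Figure D4:**
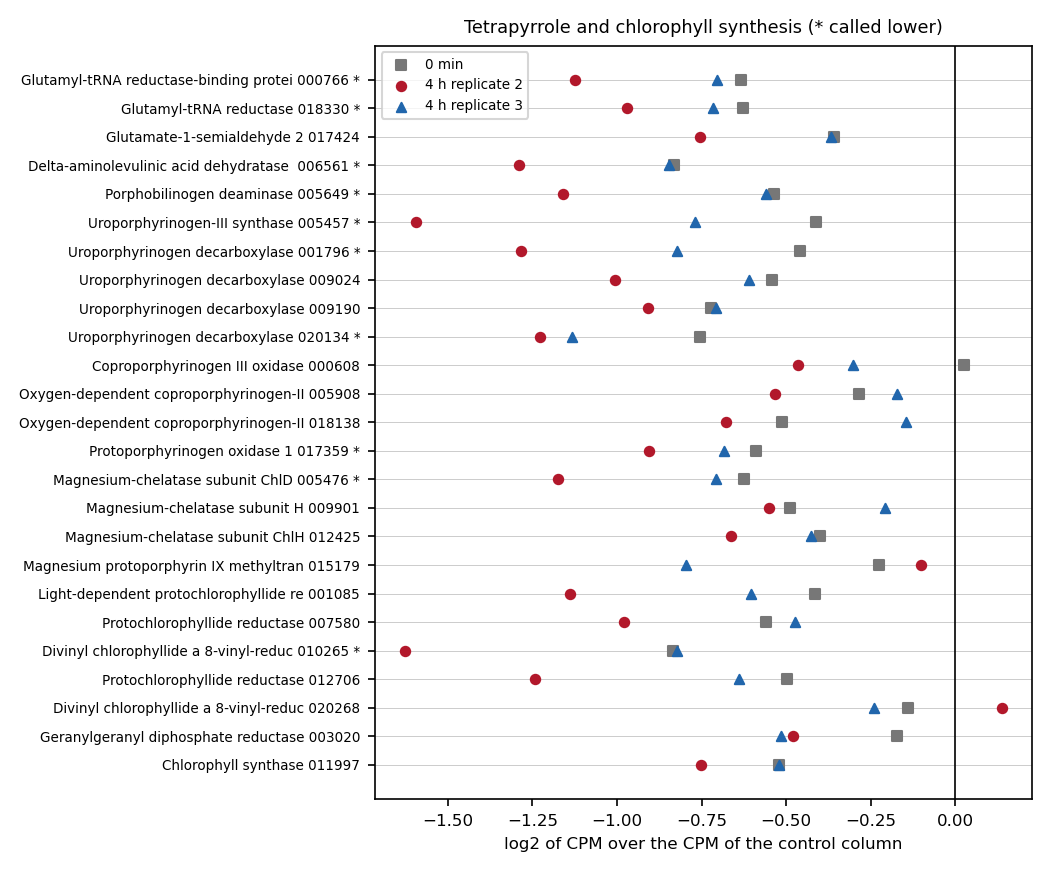
The 25 tested genes of tetrapyrrole and chlorophyll synthesis are listed in pathway order, with the log2 ratio of CPM at 0 min (grey squares), 4 h replicate 2 (red circles) and 4 h replicate 3 (blue triangles) to the control column at 0, and an asterisk at the 10 called lower. Both 4 h points lie left of the control in 24 of the 25 genes (in 39.3% of all tested genes), and the 0 min point is also to the left of 0 in most.

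Of 141 tested nutrient and metabolite transporters, 4 rose and 4 fell, with a median of -0.21. Each share was 2.84%, beside 2.7% higher and 1.07% lower over all genes, so the higher share was near that of all genes. Of the 4 that fell, the ABC transporter G family member 36 (CCRYP_002341), an exporter in Arabidopsis, measured 72.8 CPM in the control, 59.4 at 0 min, 26.2 and 27.2 at 4 h, and 50.8 and 68.8 at 8 h. It was among the 9 genes lower than both baselines, by -1.45 ± 0.24 against the control (edgeR adjusted p = 0.000712) and -1.15 ± 0.24 against 0 min (edgeR adjusted p = 0.00584). A putative sulphate transporter (CCRYP_005475) fell by 1.22, an ABC transporter of the D family (CCRYP_000010) by 0.97 and the zinc transporter ZupT (CCRYP_018356) by 0.95, and these 3 calls were lost without replicate 2.

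Outside the list, the metal transporter Nramp2 (CCRYP_006566), of a family that moves iron and manganese, stood at 71.9 CPM in the control, 61.8 at 0 min, 27.4 and 25.3 at 4 h, and 62.9 and 73.3 at 8 h. It was also lower than both baselines, by -1.44 ± 0.24 against the control (edgeR adjusted p = 0.000753) and -1.23 ± 0.24 against 0 min (edgeR adjusted p = 0.00337). The calls of Nramp2 and of CCRYP_002341 against the control held without either 4 h replicate. The phosphate-binding protein PstS (CCRYP_002463) fell by 0.99, and its call did not hold without replicate 2.

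Of the 4 transporters of the list that rose, the vacuolar iron transporter (CCRYP_010314), which stores iron in the vacuole in plants, went from 64.9 CPM in the control and 63.4 at 0 min to 113 and 175, by 1.14 ± 0.24 (edgeR adjusted p = 0.00709). A vacuolar cationic amino acid transporter (CCRYP_008833) rose by 1.17, a phosphate permease (CCRYP_018958) by 1.06 and a mitochondrial protein named ABC transporter 1 (CCRYP_006223) by 1.16. Outside the list, the succinate-acetate symporter SatP (CCRYP_009163) went from 858 CPM in the control and 572 at 0 min to 1539 and 2457 at 4 h, by 1.22 ± 0.32 (edgeR adjusted p = 0.0324). The calls of SatP and of the amino acid transporter were lost without replicate 3, and those of the permease and CCRYP_006223 without replicate 2.

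CCRYP_002341 and Nramp2 were not called lower than at 2 h, where they already stood at 28.4 and 29.6, and 29.7 and 29.6 CPM. Their differences of -0.12 and -0.17 from 2 h did not pass (edgeR adjusted p = 0.88 and 0.818). The other named genes lower than both baselines were called lower than at 2 h. A DEAD-box RNA helicase (CCRYP_020353) stood at 63.4 CPM in the control, 66.8 at 0 min, and 29.6 and 39.1 at 4 h. At 2 h it stood at 86.8 and 73.7, and the difference was -1.23 ± 0.22 (edgeR adjusted p = 0.00176). The uncharacterized protein C9orf85 (CCRYP_019702) measured 18.4 CPM in the control, 17.2 at 0 min, 34.5 and 36.1 at 2 h, and 6.48 and 8.19 at 4 h, -1.34 ± 0.33 from the control (edgeR adjusted p = 0.0216) and -2.27 ± 0.27 from 2 h (edgeR adjusted p = 3.32e-05). Both calls against the control were lost without replicate 2. Among genes lower than the control only, the one annotated as venom allergen 5.01 (CCRYP_007868) had 56 counts in the control and 15 and 10 at 4 h, and fell by 2.00 ± 0.48 on the log2 scale (edgeR adjusted p = 0.0211). The beta subunit of mitochondrial ATP synthase (CCRYP_007557) fell from 553 CPM to 319 and 284, by 0.87, with 344 at 0 min. It was the 1 gene called among 38 of mitochondrial respiration, 2.63% lower beside 1.07% of all genes. An RNA methyltransferase (CCRYP_006680) and a membrane protein named YjcL (CCRYP_013674) fell by 1.35 and 1.24.

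Genes without a protein name held some of the greatest differences. CCRYP_002980 had 1 count in the control and 40 and 51 at 4 h, a ratio of 50.8 with a 95% counting interval of 8.89 to 2029 (edgeR adjusted p = 0.00183). CCRYP_000233 had 3 counts in the control and 37 and 24 at 4 h, a ratio of 11.4 with an interval of 3.71 to 56.6 (edgeR adjusted p = 0.0129). CCRYP_004848 had 0 counts in the control and 16 and 17 at 4 h, at least 6.22-fold higher than the 3 counts that 0 in the control column allows (edgeR adjusted p = 0.0205). Of the unnamed genes that fell, CCRYP_014906 went from 26.6 CPM to 6.48 and 7.07, by 1.97 ± 0.33 on the log2 scale (edgeR adjusted p = 0.001). CCRYP_002319 and CCRYP_017721 fell by 1.59 and 1.50. Against 0 min, CCRYP_002980, CCRYP_014906 and CCRYP_017721 were called in the same direction (edgeR adjusted p = 0.00427, 0.0127 and 0.0257). CCRYP_000233, CCRYP_004848 and CCRYP_002319 were not called against 0 min (edgeR adjusted p = 0.17, 0.488 and 0.383).

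The comparisons with the neighbouring times share the 4 h columns with those above. The 30 min columns gave 3281 calls (26.2%), with 1574 genes higher (12.6%) and 1707 lower (13.7%) at 4 h. Against 2 h there were 271 (2.17%), 21 higher (0.168%) and 250 lower (2%). Against 8 h there were 417 (3.34%), of which 351 were higher (2.81%) and 66 lower (0.528%). Without 4 h replicate 2 these counts were 2641, 34 and 224, so the comparison with 2 h rested mostly on that column. Scaling by library size alone moved the median of all genes by more than 0.1 against 30 min (-0.26 in place of -0.02) and against 8 h (-0.13 in place of 0.03).

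No gene was called in 1 direction against the control, 0 min, 2 h and 8 h together by edgeR (0 higher and 0 lower, 0% of tested genes). At an unadjusted p below 0.05 in each, 66 genes were higher and 19 lower, DESeq2 called 2 and limma-voom 0. Of the 134 genes higher than both baselines, none was called against 2 h, which does not show equal levels, and 130 were called higher at 4 h than at 8 h.

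None of 76 tested cytosolic ribosomal protein genes was called by edgeR against the control. At an unadjusted p below 0.05, 2 were higher (11.1% of all genes were) and none lower (10.2% of all genes), DESeq2 and limma-voom called 0, and the median was 0.09. Against 30 min 73 of the 76 were lower at 4 h (13.7% of all genes were), with a median of -1.21. Against 2 h 23 were lower (2% of all genes were), with a median of -0.70. The count against 2 h was 0 without replicate 2 and 35 without replicate 3. The large subunit protein L8 (CCRYP_000409), for example, stood at 388 CPM in the control, 684 and 652 at 30 min, and 376 and 453 at 4 h, so that the 4 h columns lay on either side of the control. Ribosome biogenesis genes numbered 3 lower (2.1%, beside 1.07% of all genes) and none higher among 143 against the control. Against 30 min 76 were lower, beside 13.7% of all genes. Of 103 tRNA ligases and translation factors, 1 rose and 1 fell against the control (0.97% each, beside 2.7% and 1.07% of all genes). Of the same list, 52 were lower than at 30 min, beside 13.7% of all genes.

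Chitin and silicon genes, which serve the cell wall and the chitin threads of this group of diatoms, were not called against the control by edgeR: 0 of 25, with a median of 0.17. At an unadjusted p below 0.05, 4 of the 25 were higher and 2 lower, beside 11.1% and 10.2% of all genes, and DESeq2 called 1 and limma-voom 0. Against 30 min 19 of the 25 were higher at 4 h and 2 lower, beside 12.6% and 13.7% of all genes. Chitin synthase 6 (CCRYP_011727) stood at 896 CPM in the control, 277 and 436 at 30 min, and 750 and 1045 at 4 h, a log2 difference of 1.34 from 30 min (edgeR adjusted p = 7.15e-05) and 0.00 from the control (edgeR adjusted p = 0.997).

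None of 84 antioxidant and redox genes, 71 cytoskeletal genes or 34 plastid and mitochondrial ribosomal protein genes was called by edgeR. At an unadjusted p below 0.05 these lists had 2, 9 and 3 higher and 16, 4 and 1 lower members (11.1% and 10.2% of all genes were higher and lower), DESeq2 called 2, 1 and 1, and limma-voom called none of them. Superoxide dismutase (CCRYP_003411) was at 969 CPM in the control and 522 and 618 at 4 h, -0.77 ± 0.25, and did not pass (edgeR adjusted p = 0.0797). Of 175 protein kinases outside the calcium and cyclin groups, 6 rose (3.43%) and 1 fell (0.57%), beside 2.7% and 1.07% of all genes. Of 166 genes of the proteasome and ubiquitin system, 4 rose (2.41%) and 2 fell (1.2%), among them a ubiquitin-activating enzyme (CCRYP_002673) that fell by 1.15. Histones and their modifiers, DNA replication and repair, and splicing factors had 1 higher and no lower gene each, of 59, 88 and 57. The higher shares were 1.69%, 1.14% and 1.75%, beside 2.7% of all genes, and 1.07% of all genes were lower.

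**Figure D5:**
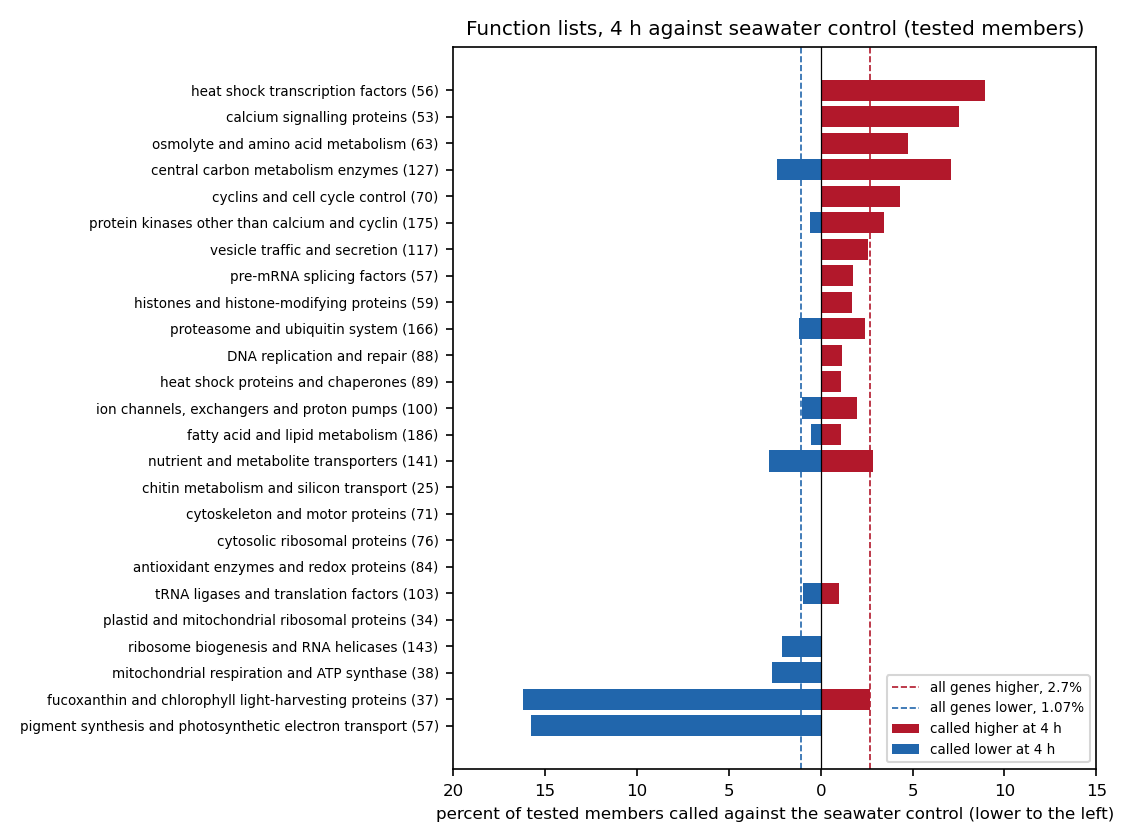
Bars give the percent of tested members of each of 25 function lists that were called higher (red, to the right) or lower (blue, to the left) at 4 h than in the seawater control, and dashed lines mark 2.7% and 1.07%, the shares over all tested genes. Heat shock factors (8.93%) and calcium signalling (7.55%) reach farthest to the right, and light-harvesting proteins (16.2%) and pigment synthesis (15.8%) farthest to the left.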

How the data were processed

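The authors deposited whole-number read counts per gene. Reads were aligned with STAR 2.7.3a and counted with HTSeq 0.11.3, and edgeR was used, per the submitters' processing notes. Genome build, annotation and use of strand were not given in the sources used here. Without strand, overlapping and antisense genes cannot be told apart, and reads aligned in more than 1 place are left out of gene counts, which lowers near-identical copies. A table of comparisons deposited by the authors, with log2 changes and p-values for 7 freshwater times against 0 min, was not used. RNA was polyA-selected with the KAPA mRNA HyperPrep Kit, per the labels' protocols.

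From the counts, genes passing filterByExpr (minimum count 10, minimum total 15) were normalised by TMM and compared in edgeR 4.0.16 under R 4.3.3 (robust quasi-likelihood, 1 coefficient per group, 7 residual degrees of freedom for columns, common biological coefficient of variation 14.2%). Columns were taken as copies or means of others by comparing counts of at least 100; the 16 independent columns entered the fit. Gene IDs matched to the reference table numbered 0 of 14109, so no coordinates or sequences are given. Columns matched to no sample numbered 0. HTSeq's summary rows stayed out of library sizes and tests. A count of 0 was bounded at 3 counts, and ratios for 1 to 3 control counts carry 95% exact intervals; both cover counting error only. Members and lists were chosen with earlier results of these data known. Genes were named by rule: among called genes with at least 10 counts in every column of the higher group, the 12 highest and 12 lowest with a protein name, the first 3 each way without one, and up to 4 called members of each list, or 2 by mean level where none was called; others were chosen after their values were seen. Alternatives were DESeq2 1.42.0, limma-voom (limma 3.58.1), other scalings, no filter, all 27 columns, means of dependent columns, only the compared groups, a replicate block, and leaving out a column or a time. The method was tested on simulated data.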

Additional observations from a re-analysis of the deposited data

Results flagged for a closer look

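Differences between 4 h and another freshwater time are differences between their contrasts with the same control. By edgeR, such a difference was called for 3281 genes at 30 min, 271 at 2 h and 417 at 8 h. Among the genes named by rule, HSF1 (CCRYP_001763) was higher at 4 h than at 2 h by 1.70, and C9orf85 (CCRYP_019702) differed by -2.27.

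Genes higher at 4 h than at 8 h were pyruvate dehydrogenase E1 alpha (CCRYP_012039) by 2.94, the p97-type ATPase (CCRYP_013766) by 2.16, ACSF3 (CCRYP_001740) by 2.12, the opine dehydrogenases CCRYP_006805 and CCRYP_020427 by 2.05 and 1.53, and the hexosamine enzyme (CCRYP_013935) by 1.95. The proteases CCRYP_012891 and CCRYP_006587 were higher by 1.72 and 1.50, calcineurin B (CCRYP_007721) by 1.38, the kynurenine aminotransferase (CCRYP_004064) by 1.18, and the unnamed genes CCRYP_002980 and CCRYP_004848 by 4.18 and 2.49.

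Genes lower at 4 h than at 8 h were the LI818 genes CCRYP_010211 (-1.50) and CCRYP_010212 (-1.40), Nramp2 (CCRYP_006566, -1.36), the ABC transporter CCRYP_002341 (-1.16), HCF101 (CCRYP_005936, -0.90), and the unnamed CCRYP_014906 (-1.64) and CCRYP_017721 (-1.26). All values are log2 differences.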

How the results depend on the processing

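Under DESeq2's size factors, library size only, DESeq2 and limma-voom, each count of calls stayed within 1.5 times the reported one, apart from genes called against the control, 0 min, 2 h and 8 h together (0 reported; 1 under the size factors, 2 under DESeq2). Without the filter on low counts the calls were 1174 against the control (764 higher, 410 lower), 360 against 0 min, 568 against 2 h, 744 against 8 h and 7 against all 4. Treating all 27 columns as samples counts copies as replicates, and gave 5843 (3200 and 2643), 3097, 7041 against 30 min, 2946, 3511 and 351. With only the groups compared, 51 genes were lower than the control, 169 differed from 2 h and 276 from 8 h. Leaving out 1 of the 4 h columns gave 158 to 1433 calls against the control (146 to 802 higher, 12 to 631 lower), 172 to 214 against 0 min, 2501 to 2641 against 30 min, 34 to 411 against 2 h, 224 to 665 against 8 h and 0 to 7 against all 4; the low ends against the control, 2 h and 8 h are without replicate 2. Of the 471 calls, 145 remained without replicate 2 and 439 without replicate 3. Without the 10 h columns, an alternative chosen after seeing the data like the next, 84 genes were lower than the control. Without the 30 min columns 1 gene passed all 4. The cause of these moves was not tested. Of 200 called genes followed singly, those no longer called numbered 9 under DESeq2 (178 were still called and 13 had no adjusted p), 51 under limma-voom, 93 with only the groups compared, 151 without replicate 2 and 14 without replicate 3, and none changed direction. The single control column and genes of a few counts limit the precision of every comparison with seawater.

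The deviations of same-numbered columns correlated at r from -0.16 to 0.36 over 24 pairs. Of these, 8 were over 0.1, all of them between times from 2 h on. Every same-numbered pair between times from 2 h on was positive, at r from 0.08 to 0.36. In a group of 2 columns the deviations mirror each other, so these pairs are not independent and cannot decide whether the samples are paired. The main fit did not pair them. With the replicate block there were 664 calls against the control (425 higher, 239 lower), 267 against 0 min, 3679 against 30 min, 344 against 2 h, 612 against 8 h and 1 against all 4. Of the 471 reported calls 370 remained under the block, and of the 200 genes followed singly 42 did not.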
